A study of Homo sapiens with 14 samples.

Results

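Binding of the corepressor SKI and the transcription factor RUNX1 was examined at 6 genes that encode proteins of the primary granule: MPO, ELANE, PRTN3, AZU1, CTSG and LYZ. The genes were taken by name. Of the 88872 peaks in the 4 deposited peak lists, 67 named a member as the gene with the nearest transcript start or were centred within 10 kb of a transcript start (TSS) of a member. The lists come from chromatin immunoprecipitation with sequencing of HL60, a cell line from a human acute myeloid leukaemia that resembles promyelocytes. SKI was precipitated from unmodified cells in 2 replicates, and these lists hold 54841 and 14431 peaks. It was also precipitated from a CRISPR/Cas9 control line labelled CTR-1 (14019 peaks), and RUNX1 was precipitated from unmodified cells (5581 peaks). No drug, dose or time was given for any of these groups, and whether CTR-1 is a clone is not given in the sources used here. The other 10 of the 14 samples, which include cells with SKI deleted, were not analysed here.

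Primary granules, also called azurophil granules, are filled at the promyelocyte stage of neutrophil development with enzymes and peptides that kill microbes. Myeloperoxidase (MPO) makes hypochlorous acid, and lysozyme (LYZ) cuts bacterial cell walls. Neutrophil elastase (ELANE), proteinase 3 (PRTN3) and cathepsin G (CTSG) are serine proteases, whereas azurocidin (AZU1) is a relative of them that has lost protease activity and kills bacteria as a cationic protein. AZU1, PRTN3 and ELANE lie side by side on chromosome 19 and are transcribed in the same direction. RUNX1 binds DNA together with CBFB and, with C/EBP, PU.1 and MYB factors, is a classical regulator of such genes in myeloid progenitors. SKI reaches DNA through partner proteins, SMADs among them, and recruits histone deacetylase complexes.

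Fold enrichment is the authors' value for a peak over its background and is used here to rank a peak within its own list. A rank is given as a percentage from the top, so that 50% is the median of the list. Positions are on hg19, and distances are the deposited ones from a peak to the nearest TSS unless a gene is named. The peak of a sample is a result of the authors' caller, and a missing peak says only that none was listed there. The 3 SKI lists differ in length, and total library depth is not given in the sources used here. Occupancy was measured, not expression.

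Promoter sequences were held for 3 of the 6 members, PRTN3, AZU1 and CTSG, in a RefSeq table on build GRCh38.p14. They are shown because SKI peaks lay over the main TSS of all 3 genes, and a RUNX1 peak over that of CTSG alone. The RUNX1 peak of AZU1, which the authors also classed as at a TSS, had its summit at -1208 bp from an upstream AZU1 TSS. MPO, ELANE and LYZ are named only. Each sequence covers the 250 bases before the RefSeq TSS, 5′ to 3′ along the gene. Capitals mark matches, on either strand, to RUNX letters (TGTGGT or TGCGGT), C/EBP letters (TTGCNNAA), ETS letters (GAGGAA), MYB letters (AACTG or AACGG) or SMAD letters (CAGAC).

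PRTN3 (chr19:840749-840998, plus strand): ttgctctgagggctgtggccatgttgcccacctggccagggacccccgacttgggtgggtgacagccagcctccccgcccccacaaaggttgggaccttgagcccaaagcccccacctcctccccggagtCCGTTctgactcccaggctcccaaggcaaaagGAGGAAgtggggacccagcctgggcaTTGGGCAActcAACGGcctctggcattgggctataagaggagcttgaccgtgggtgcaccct

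AZU1 (chr19:827587-827836, plus strand): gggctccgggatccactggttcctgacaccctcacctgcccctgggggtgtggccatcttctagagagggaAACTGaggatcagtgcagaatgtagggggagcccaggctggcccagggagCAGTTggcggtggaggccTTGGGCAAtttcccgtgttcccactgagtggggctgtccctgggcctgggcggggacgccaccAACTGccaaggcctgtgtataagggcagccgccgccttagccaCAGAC

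CTSG (chr14:24576251-24576500, minus strand): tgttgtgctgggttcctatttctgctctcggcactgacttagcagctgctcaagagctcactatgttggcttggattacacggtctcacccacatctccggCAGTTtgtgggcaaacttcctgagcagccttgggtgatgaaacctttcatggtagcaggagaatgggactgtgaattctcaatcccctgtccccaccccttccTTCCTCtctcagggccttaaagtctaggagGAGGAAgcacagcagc

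The C/EBP letters occurred in PRTN3 and in AZU1 as the same 8 bases, TTGGGCAA, starting 62 and 111 bases before the TSS. Such a match was present in 9.05% of the 35116 promoters of the table. ETS letters occurred in PRTN3 (88 bases before the TSS) and in CTSG (46 and 16 bases before it), and 23.6% of promoters hold them. MYB letters were in all 3 sequences, and in 45.6% of promoters. SMAD letters were in AZU1, in the last 5 bases before the TSS, and in 38% of promoters. RUNX letters were in none of the 3 windows, and 16.3% of promoters hold them. These matches describe the letters and not binding.

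SKI peaks lay within 10 kb of a TSS of all 6 genes in each of the 3 SKI lists. Over all 20056 protein-coding genes this was the case for 62.9% in unmodified replicate 1, 32.6% in unmodified replicate 2 and 31.3% in the control line. The share of all genes with a peak of every SKI list was not computed. Of the 6 members, 4 had a peak of every SKI list with lists cut to equal length. The number was also 4 with a distance of 1000 bp and 4 with a distance of 5000 bp. A shared SKI site, which is a run of overlapping peaks that holds a peak of every SKI list, lay within 10 kb of 5 of the 6 genes, LYZ being the exception. That count was 3 with lists cut to equal length and 3 with a distance of 1000 bp. At 10 kb the background was 24.7% of all protein-coding genes, or 37.3% of the 13280 genes for which a TSS could be rebuilt from the lists, as it could for all 6 members. RUNX1 peaks lay within 10 kb of 3 genes, MPO, AZU1 and CTSG, against 9.95% of all protein-coding genes and 15.0% of those with a rebuilt TSS. With a distance of 50000 bp all 6 genes had a RUNX1 peak, but the share of all genes at that distance was not computed. At MPO, AZU1 and CTSG a shared SKI site overlapped a RUNX1 peak by at least 1 bp, where the background was 6.6% and 9.96%. These 3 were also the members with a peak of all 4 lists within 10 kb, as 7.86% of all protein-coding genes had. Over genes with a rebuilt TSS this share, and those of each SKI list alone, were not computed. With 6 genes, of which 3 are neighbours that share peaks, these counts describe the genes and were not tested.

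The peaks joined into 34 SKI sites, of which 9 were shared, 6 were in 2 lists and 19 were in unmodified replicate 1 alone. None of the 19 overlapped a RUNX1 peak. Of all SKI sites listed in unmodified replicate 1 alone, 2.83% did. Of the shared sites 8 were centred within 10 kb of a member, and 3 of these overlapped a RUNX1 peak (37.5%), a share near the 33.5% of all 8980 shared SKI sites. The ninth lay just over 10 kb from LYZ and also overlapped a RUNX1 peak.

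MPO had the densest RUNX1 binding of the 6 genes, with 3 RUNX1 peaks in the 5 kb upstream of its TSS and SKI peaks on each of them. MPO (ENSG00000005381) runs on the minus strand, and its TSS was rebuilt at position 56358285 of chromosome 17. The RUNX1 peaks fell in 3 places, at the TSS and upstream, and SKI was also listed downstream of the TSS.

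The farthest upstream site was at chr17:56361265-56363296. Its SKI fold enrichment was 74.80 in unmodified replicate 1 (rank 5.44%), 14.18 in unmodified replicate 2 (30%) and 31.01 in the control line (8.83%), and all 3 lists placed it at -3990 to -4020 bp. RUNX1 had a fold enrichment of 28.68 there (25.5%), from 131 tags. This was the shared SKI site of MPO that carried RUNX1, and it ranked in the upper part of every list.

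The next site, at chr17:56358981-56359614, was about 1 kb upstream. RUNX1 had its strongest peak at MPO there, with a fold enrichment of 43.50, 157 tags and a deposited distance of -1046 bp. SKI fold enrichment was 16.74 in unmodified replicate 2 (22.2%) and 14.42 in the control line (37.0%). At the TSS itself (chr17:56357922-56358704) the SKI values were 11.39 and 17.72 in these lists. The RUNX1 peak at the TSS had a fold enrichment of 5.47, which ranked in the lowest part of its list (96.6%). RUNX1 fold enrichment at MPO thus ran from 43.50 (rank 11.5%) to 5.47 (96.6%) over about 1 kb. The SKI peaks of unmodified replicate 2 and the control line at these places ranked between 22.2% and 43.4%.

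Unmodified replicate 1 lists no SKI peak at the MPO promoter, from position 56353475 to position 56361265, an interval of 7790 bp. The list carries row numbers of a longer table, and exactly 1 number is missing from this interval. What that row held was not analysed here. In the same interval unmodified replicate 2, the control line and RUNX1 list 2 peaks each. The absence of a shared SKI site at the MPO promoter therefore rests on that list. Without unmodified replicate 1, the shared SKI sites at members that overlap RUNX1 numbered 5 instead of 3.

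Downstream of this MPO TSS, SKI had a shared site without RUNX1 at chr17:56344252-56347545, which the authors classed as exonic. Its summits lay 12393 to 13085 bp past that TSS, called the main one here. The site counts as within 10 kb through another MPO TSS that the lists name, at position 56350878. From that other TSS the summits lay 4986 to 5678 bp downstream. Whether the site lies within MPO or past its end is not given in the sources used here. The site was broad in unmodified replicate 1, at 3294 bp with 787 tags, yet its fold enrichment of 18.66 was that of a median peak (50.4%). The values were 6.0 in unmodified replicate 2 and 8.18 and 6.98 at a pair of peaks in the control line, all in the lower part of their lists. Unmodified replicate 1 had 4 further peaks downstream of the main MPO TSS, with fold enrichments of 3.09 to 4.66, at the bottom of that list. The value of 3.09 was the lowest of its 54841 peaks.

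**Figure D1:**
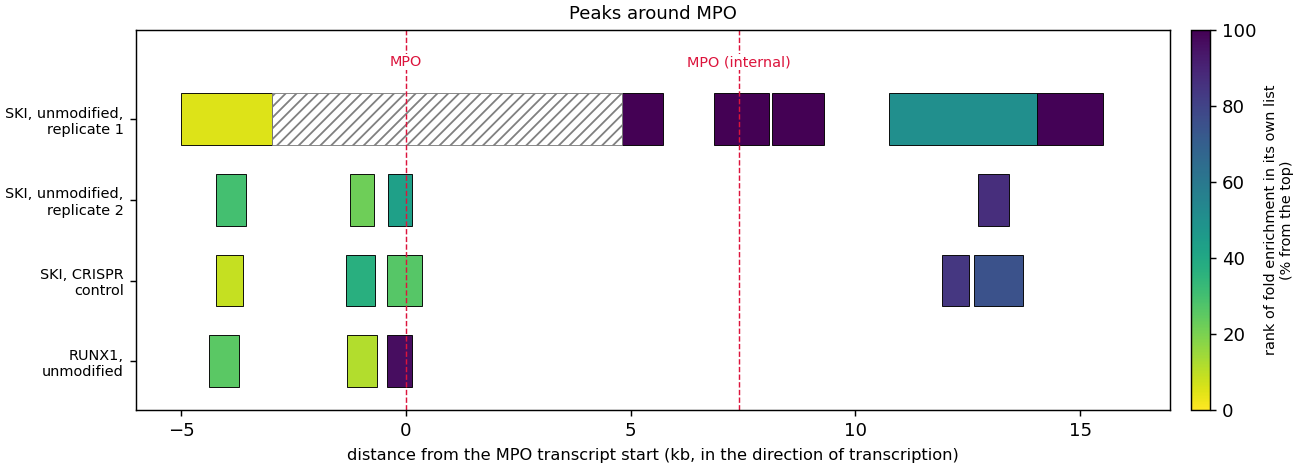
Peaks of the 4 lists around MPO, drawn to scale by distance from its TSS in kb (dashed lines mark the TSSs that the lists name); colour gives the rank of fold enrichment within a list, and hatching marks an interval of unmodified replicate 1 with a missing row number. The hatched interval of 7790 bp spans the places where the other 3 lists have 2 peaks each.

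The AZU1, PRTN3 and ELANE cluster carried many SKI peaks and 1 RUNX1 peak. The TSSs of AZU1 and PRTN3 are 13119 bp apart and those of PRTN3 and ELANE 11415 bp. In a window of 47277 bp, from 10 kb before the most upstream AZU1 TSS to 10 kb past the ELANE TSS, the SKI lists had 14 peaks in unmodified replicate 1, 6 in unmodified replicate 2 and 8 in the control line. These covered 49.5%, 6.97% and 16.5% of the window, and the lists differ in peak number and width throughout. The single RUNX1 peak covered 1.21%.

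RUNX1 bound the upstream end of the cluster strongly. Its peak at chr19:823582-824153 had a fold enrichment of 79.80 from 112 tags and ranked 129th of 5581 (2.31%), the highest rank of any RUNX1 peak at the 6 genes. Its summit lay at -1208 bp from an upstream TSS of AZU1 (ENSG00000172232) and at -3951 bp from the main one. The SKI site there spanned chr19:820756-825441. In unmodified replicate 1 it was 1 peak of 4686 bp with 1488 tags and a fold enrichment of 82.84 (4.06%). In the other SKI lists it was a pair of peaks.

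The RUNX1 peak fell on the AZU1-side member of each pair. SKI fold enrichment on that side was 12.03 in unmodified replicate 2 and 19.03 in the control line. On the other side, at the TSS of LPPR3, a gene that faces away from AZU1 and encodes a phospholipid phosphatase-related protein, SKI values were 10.40 and 25.62 with no RUNX1 peak. The summits of SKI and RUNX1 at the AZU1 side were 10, 4 and 3 bp apart in the 3 SKI lists, the closest of any pair at the members.

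The AZU1 TSS itself had a shared SKI site without RUNX1 (chr19:826101-828586). Fold enrichment was 61.28 in unmodified replicate 1 (9.02%), 16.76 in unmodified replicate 2 (22.1%) and 15.37 in the control line (33.5%). With the sites on either side, AZU1 had 3 shared SKI sites within 10 kb, as 1.38% of protein-coding genes did, and no other member had as many. That share is over genes with and without a rebuilt TSS.

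PRTN3 (ENSG00000196415) had SKI on its promoter and upstream, and no RUNX1 peak within 10 kb. The site upstream, at chr19:835343-837332, lay at -4260 to -4367 bp from the PRTN3 TSS and within 10 kb of AZU1 as well. It had the highest SKI fold enrichment of any peak at the 6 genes, 103.92 in unmodified replicate 1, which ranked 961st of 54841 (1.75%). The value was 17.46 in unmodified replicate 2 (20.3%) but 7.75 in the control line (77.8%), from 35 tags. The lists therefore did not place this site alike.

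At the PRTN3 TSS (chr19:840189-841428) the order was another. Fold enrichment was 77.79 in unmodified replicate 1 (4.86%), 12.22 in unmodified replicate 2 (38.3%) and 20.03 in the control line (21.2%). Between these shared sites, a peak was listed in unmodified replicate 1 at -1618 bp (64.02) and in the control line at -1588 bp (11.92), and not in unmodified replicate 2. A peak past the internal PRTN3 TSS, at chr19:843130-844956, was likewise in these lists (21.22 and 5.81). With 1 control list, a difference between control and unmodified cells could not be tested.

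ELANE (ENSG00000197561) stood apart from AZU1 and PRTN3 in that no SKI peak of unmodified replicate 2 or the control line named it as the nearest gene. A weak peak of the control line that named PRTN3 (5.81) was still centred within 10 kb of ELANE. No RUNX1 peak named ELANE, and none named PRTN3. In unmodified replicate 1, a SKI peak lay upstream of ELANE at chr19:846926-849466 (557 tags, a fold enrichment of 50 and rank 13.5%). Another, at chr19:850306-851537 (26.25, 182 tags, 33.8%), lay over an upstream ELANE TSS at position 851010 and before the main one. A weak peak in the gene, with a fold enrichment of 6.52, ranked at 96.1%. The shared SKI site that counts for ELANE was at the promoter of the next gene, CFD, which encodes complement factor D, a serine protease of the alternative complement pathway.

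That CFD site (chr19:858737-861236) was centred within 10 kb of the ELANE TSS. SKI fold enrichment was 65.16, 9.38 and 17.97 in unmodified replicate 1, unmodified replicate 2 and the control line, with no RUNX1 peak. By nearest gene alone, ELANE would have no shared SKI site. One row number of unmodified replicate 1 is also missing between positions 851537 and 853455, which hold the main ELANE TSS, and no other list has a peak there.

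**Figure D2:**
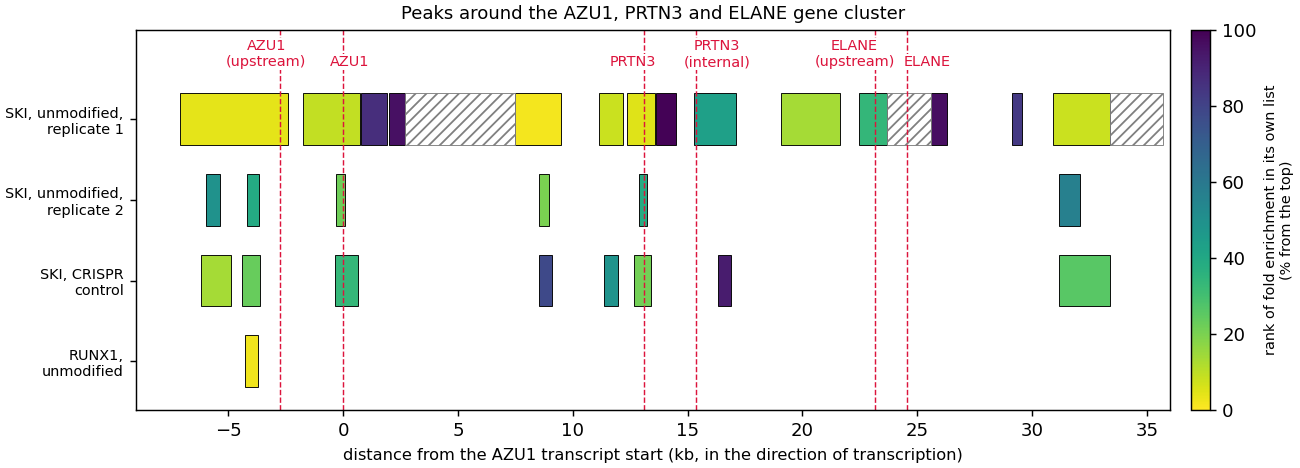
Peaks of the 4 lists across the AZU1, PRTN3 and ELANE cluster, drawn to scale by distance from the main AZU1 TSS in kb; dashed lines mark the TSSs that the lists name, colour gives the rank of fold enrichment within a list, and hatching marks intervals of unmodified replicate 1 with a missing row number. SKI has 14, 6 and 8 peaks in the 3 SKI lists, and the single RUNX1 peak lies upstream of AZU1 (rank 2.31%).

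CTSG (ENSG00000100448), on the minus strand of chromosome 14, had a simple pattern: 1 site at its promoter, with both proteins. The shared SKI site was at chr14:25045158-25046541. SKI fold enrichment was 36.76 in unmodified replicate 1 (21.7%, 479 tags), 7.65 in unmodified replicate 2 (71.1%, 72 tags) and 9.97 in the control line (61.3%, 51 tags). RUNX1 had a fold enrichment of 17.54 there from 55 tags (53.1%), at a deposited distance of -157 bp. The site was thus present in all 4 lists but in the lower ranks of 3 of them. In unmodified replicate 1 there was also a peak at -5819 bp (30.39) and a very weak peak in the gene (3.72).

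LYZ (ENSG00000090382), on chromosome 12, was bound mainly upstream. Its strongest site, chr12:69731247-69732478, held a peak of all 4 lists. SKI fold enrichment was 68.75 in unmodified replicate 1 (6.93%), 9.82 in unmodified replicate 2 (53.6%) and 13.12 in the control line (42.5%), and RUNX1 fold enrichment was 16.07 from 38 tags (58.9%). Their deposited distances were -10084, -10024, -10089 and -10061 bp, so that this site lay just outside the limit of 10 kb. Counting it, all 6 genes would have a shared SKI site and 4 a RUNX1 peak.

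At the LYZ TSS, SKI peaks were listed in unmodified replicate 1 (58.88, 9.77%) and in unmodified replicate 2 (9.56, 55.6%) and not in the control line. A site farther upstream was listed in unmodified replicate 1 (35.23, -6779 bp) and in the control line (6.26, -6789 bp, 89.7%) and not in unmodified replicate 2. Unmodified replicate 1 had 5 more peaks that named LYZ, at -4779 to -23016 bp, with fold enrichments of 4.93 to 40.10. A peak of that list upstream of YEATS4, which encodes a subunit of histone acetyltransferase complexes, was also within 10 kb of LYZ (13.75).

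**Figure D3:**
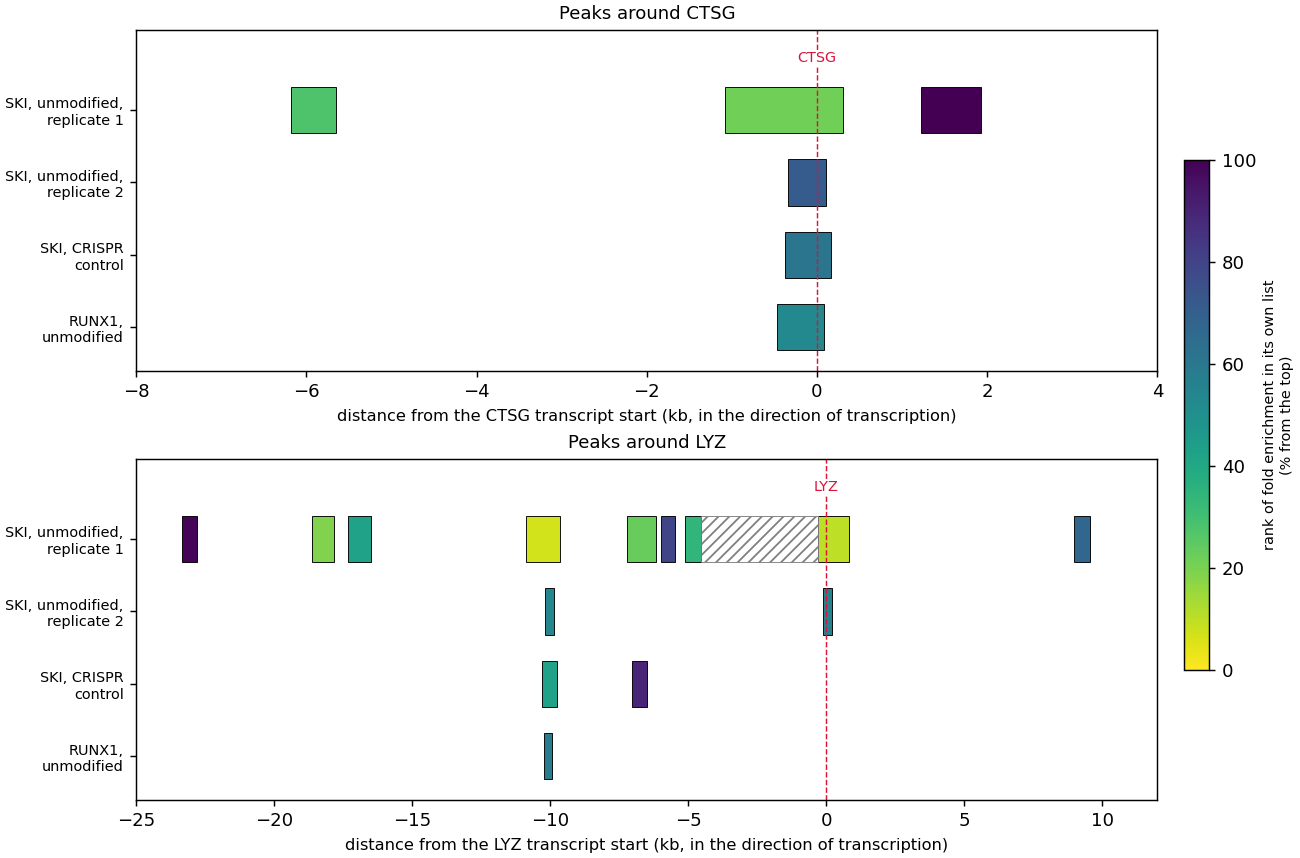
Peaks of the 4 lists around CTSG (upper panel) and LYZ (lower panel), drawn to scale by distance from the TSS in kb; colours and hatching are as in the map of MPO. At CTSG the peaks of all 4 lists overlap at the TSS, and at LYZ they overlap about 10 kb upstream.

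Each of the 6 RUNX1 peaks overlapped a SKI peak in unmodified replicate 2 and in the control line, and 4 of them did in unmodified replicate 1, the others being those in the MPO interval with the missing row number. Overlap with SKI was the usual state of a RUNX1 peak: over the whole RUNX1 list it held for 60.4% in unmodified replicate 2, 70.7% in the control line and 92.9% in unmodified replicate 1. In the 16 overlapping pairs the summits were 3 to 115 bp apart, with a median of 32 bp, and 12 of the pairs were within 50 bp. The medians over all overlapping pairs of the lists were 28, 35 and 36 bp. The widest distances were at MPO and CTSG in unmodified replicate 2, at 115, 97 and 75 bp.

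SKI without RUNX1 was the more frequent state. A RUNX1 peak overlapped 4 of 32 SKI peaks of the 6 genes in unmodified replicate 1 (12.5%, against 9.21% of the whole list), 6 of 13 in unmodified replicate 2 (46.2%, against 23.9%) and 6 of 16 in the control line (37.5%, against 27.8%). Where RUNX1 overlapped, the median SKI value was 71.8, 11.71 and 16.07 in the 3 lists. Where it did not, the median was 19.9, 10.40 and 10.05. Over the whole lists the medians were 56.93, 14.49 and 17.44 at peaks that RUNX1 overlapped and 17.49, 9.48 and 10.43 at the others. The ranges of both kinds of peak overlapped in every list. In unmodified replicate 1 the strongest peak, 103.92 upstream of PRTN3, had no RUNX1.

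The peaks of the 6 genes were not at the top of their lists as a group. Their median rank was 38.5% in unmodified replicate 1, 43.4% in unmodified replicate 2, 39.8% in the control line and 39.3% for RUNX1. The strongest 10% of a list held 9, 0, 1 and 1 of them in that order. The lower part of each list, past its median, held 14, 5, 6 and 3. The authors' class for peaks at a TSS held 46.9%, 69.2%, 62.5% and 66.7% of these peaks, against 35.2%, 52.4%, 48.0% and 23.5% of the whole lists. The choice of peaks near named TSSs bears on these shares.

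**Figure D4:**
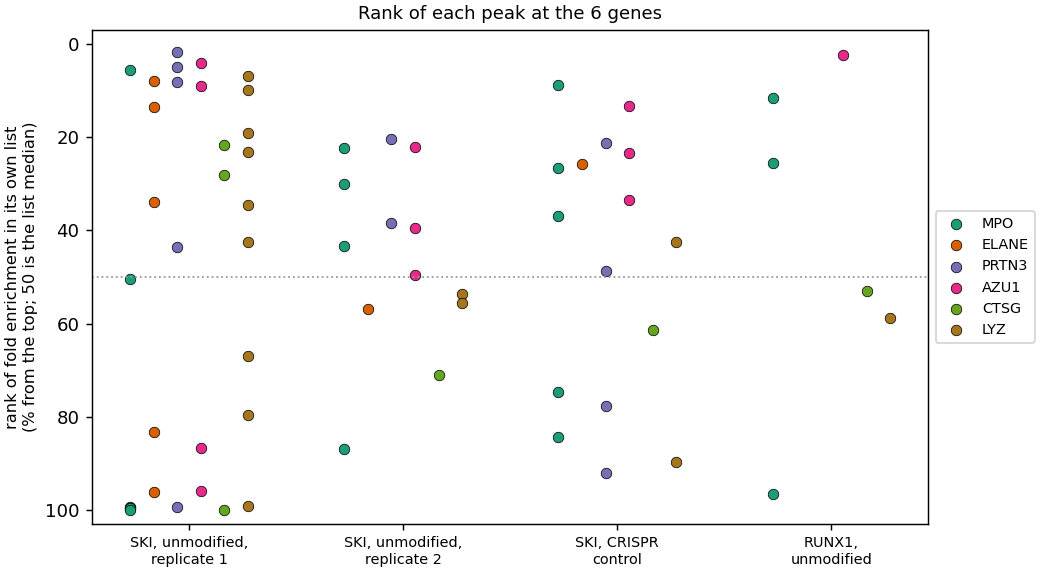
Rank of fold enrichment within its own list (vertical axis, % from the top, inverted) for each of the 67 peaks, 1 point per peak, by list and coloured by gene. Peaks nearest to a neighbouring gene are shown with the member they lie within 10 kb of; AZU1 has the best rank in the RUNX1 list (2.31%), and no peak of unmodified replicate 2 is in the strongest 10%.

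Of 30 further azurophil granule components, 13 had a shared SKI site within 10 kb (43.3%), 9 a RUNX1 peak (30%) and 6 a shared SKI site with RUNX1 (20%). Over all protein-coding genes these shares were 24.7%, 9.95% and 6.6%. Over genes with a rebuilt TSS, which 25 of the 30 had, they were 37.3%, 15.0% and 9.96%. At PRSS57, which encodes a further granule serine protease and lies on the same chromosome arm as the AZU1 cluster, SKI at the shared site (chr19:694666-696395) reached 107.97, 29.03 and 37.77 (in the order of lists above) and RUNX1 reached 52.48. At BPI, which encodes a protein that binds bacterial endotoxin, the values were 84.13, 25.63 and 58.14, and the RUNX1 peak of 153.18 ranked 8th of its list. LAMP2, a lysosomal membrane protein gene (125.33, 37.22 and 43.86), had no RUNX1 peak on its shared site.

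Among 9 inhibitors of the granule proteases, 4 had a shared SKI site (44.4%) and 3 a RUNX1 peak (33.3%). Over all protein-coding genes the shares were 24.7% and 9.95%. Over genes with a rebuilt TSS, which 7 of the 9 inhibitors had, they were 37.3% and 15.0%. At SERPINB1, an inhibitor of elastase inside neutrophils, SKI fold enrichments were 68.83, 13.88 and 12.10 without RUNX1. At SERPINA1, the gene of alpha-1 antitrypsin, they were 71.98, 21.11 and 33.76, also without RUNX1. A2M, a plasma protease inhibitor gene, had 84.93, 13.03 and 19.77, and at CST7, which encodes cystatin F, an inhibitor of lysosomal cysteine proteases, the site (36.48, 5.49 and 17.30) carried a RUNX1 peak of 36.18.

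Of 10 regulators of granule genes, all with a rebuilt TSS, 8 had a shared SKI site (80%) and 6 a RUNX1 peak (60%). Over genes with a rebuilt TSS the shares were 37.3% and 15.0%. The SKI fold enrichments at RUNX1 were 111.60, 35.16 and 45.45, with a RUNX1 fold enrichment of 42.44. SPI1, the gene of PU.1, had a shared site without RUNX1 (78.09, 11.35 and 13.06). CEBPA had 3 shared sites, of which the best ranked (50.42, 10.29 and 11.63) carried a RUNX1 peak of 27.47, and at CUX1, a homeodomain repressor gene, the values were 79.62, 16.17 and 13.72 with a RUNX1 peak of 10.82. CEBPE, the factor of later granule stages, had a RUNX1 peak within 10 kb and no shared SKI site.

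Among 23 chromosomal neighbours of the 6 genes, 9 had a shared SKI site (39.1%) and 3 a RUNX1 peak (13.0%). Over all protein-coding genes the shares were 24.7% and 9.95%. Over genes with a rebuilt TSS, which 20 of the 23 neighbours had, they were 37.3% and 15.0%. The neighbours with a shared site include LPPR3, which has 2 of its 3 shared sites in common with AZU1, and CFD. R3HDM4 and KISS1R, a receptor gene, share a site beyond CFD (64.56, 12.93 and 17.21) without RUNX1. At SUPT4H1, a transcription elongation factor gene on chromosome 17 like MPO, the site had SKI values of 81.35, 22.46 and 24.97 and a RUNX1 peak of 19.35. All of these counts are descriptions, and the lists overlap in the loci they share.

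**Figure D5:**
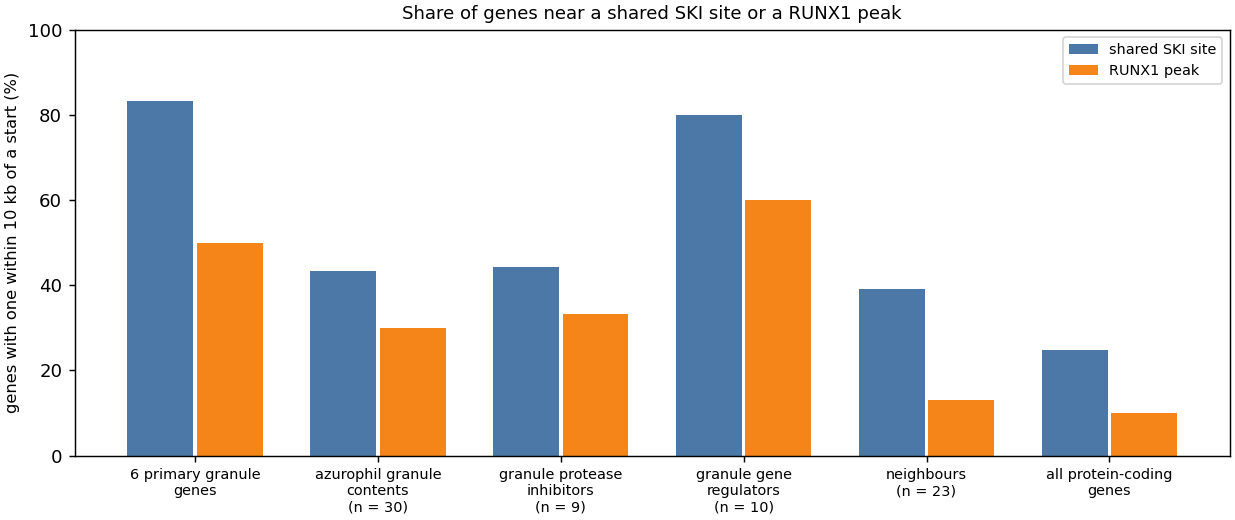
Share of genes (vertical axis, %) with a shared SKI site or a RUNX1 peak within 10 kb of a TSS, for the 6 members, 4 other gene lists and all protein-coding genes. Bars are counts of genes with no error, since each is a complete count; the 6 members and the regulators have the highest shares for SKI. The bars of all protein-coding genes (24.7% and 9.95%) include genes without a rebuilt TSS, which could not be counted as near a peak. Over genes with a rebuilt TSS the shares were 37.3% and 15.0%. The bars of the azurophil, inhibitor and neighbour lists also include genes without a rebuilt TSS.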

How the data were processed

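Peak lists of 4 samples were used, grouped by title. The submitters' processing notes name MACS 1.4, Bowtie2, bcl2fastq and deepTools and the builds hg19 and GRCh37. Which library served as background is not given in the sources used here. Per the file headers, the −log p-value of each peak is the authors' MACS output (lowest 5.0, with 4622 peaks of unmodified replicate 1 at 310). The headers name no base, and it was read here as −log10 p. Per the file headers, the deposited fold enrichment is the ratio that MACS gave each peak. Per the file headers, the deposited tag count is the number of tags MACS counted in the peak.

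TSSs were rebuilt as the median, per transcript, of summit position minus deposited distance, and 39081 were obtained (median deviation 5 bp, 312 bp at the 99th percentile). A peak or site was near a gene when its centre lay within 10000 bp of a TSS. SKI peaks overlapping by 1 bp were joined into sites. Gene names were matched to RefSeq protein-coding symbols (96.3% of 13808 names), without use of RefSeq coordinates. No test was made, as there is 1 list per group apart from the unmodified SKI pair. Named are the 6 members with all their peaks, neighbours nearest to such a peak, and up to 4 genes per other list with the best worst rank of a shared site; CEBPE was chosen after its values were seen. A gene that this rule names is not reported here. Members and lists were chosen with earlier results of these data known. On simulated lists, all 1000 planted shared sites were recovered, with the 400 genes near them. The planted peaks were of equal width and nearly aligned, so this checks the code only. The work used pandas 2.3.3 and numpy 2.4.6 under Python 3.11.15, and matplotlib 3.10.9 for plots.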

Additional observations from a re-analysis of the deposited data

How the results depend on the processing

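Of 52 values recomputed under other settings, 45 were within 1.5 times the reported count and 7 were not. With lists of equal length (5581 peaks each, so fewer peaks), 3 members had a shared SKI site and 4 shared sites lay at members. With a distance of 1000 bp, 3 members had a shared site, 3 shared sites lay at members and 1 of these overlapped RUNX1. With a distance of 50000 bp, 6 members had a RUNX1 peak. The share of all genes was not computed under these other settings. Leaving out 1 SKI list in turn gave 6 members with a SKI peak in every list each time, 5 to 6 with a shared site, 9 to 11 shared sites at members and 3 to 5 with RUNX1, the 5 being without unmodified replicate 1. Counting peaks that name a member as well as those within 10 kb, an alternative chosen after seeing the data, gave 6 members with a shared site and 4 with RUNX1. Ranking by −log10 p or by tags put 10 and 12 of the 67 peaks in the strongest 10% of their lists, against 11 by fold enrichment. No paired analysis was possible because no result comes from a test and CTR-1 and RUNX1 have 1 list each. The cause of the moves under other distances was not tested.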

Other observations

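The missing row numbers of unmodified replicate 1 were examined over the whole genome after the MPO interval had been seen. Of 75198 row numbers, 72.9% are present. SKI sites with a peak in unmodified replicate 2 and in the control line numbered 9581, and 241 of them had no peak in unmodified replicate 1. All 241 lay in an interval between consecutive peaks of that list from which at least 1 row number is missing. Such intervals make up 23.9% of the intervals between its peaks and 67.5% of their summed length. RUNX1 had a peak at 101 of the 241 sites, the 2 at the MPO promoter among them. Its share over the 9581 sites was not computed, and over the 8980 sites shared by every SKI list it was 33.5%. What the missing rows held was not analysed here, and why they are missing was not tested.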
